A study of Sus scrofa with 48 samples.

Results

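Solute carriers are membrane proteins that move amino acids, sugars, metals, ions, nucleotides and other small molecules across the plasma membrane or the membranes of organelles. In skeletal muscle, carriers of the plasma membrane bring in amino acids and glucose for protein turnover and contraction, and carriers of the SLC25 family exchange metabolites, phosphate and nucleotides across the inner mitochondrial membrane. Their genes are named SLC, then a family number, a letter and a member number. A gene was counted here when its symbol on the array began with SLC and a digit, with 1 glucose carrier left out. This gave 446 probes of 248 genes, among 60305 probes and 14606 gene names on the array. A probe was tested when it was well above background on at least 12 of 48 arrays, which left 345 probes of 196 genes. The tested genes held 22 amino acid carriers of 32 on the array, 12 glucose carriers of 15 and 28 mitochondrial SLC25 carriers of 29.

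The samples were longissimus muscle of 48 Large White barrows, that is castrated males, from 2 lines bred apart on residual feed intake (RFI), the part of feed intake not explained by growth and maintenance. Low RFI pigs eat less than predicted and high RFI pigs eat more. Pigs of both lines ate freely from either of 2 feeds, HF with much fat and fiber or LF with little of each, with 12 pigs per line and diet, and the age at sampling is not given in the sources used here. The muscle is a mixed tissue, so that fewer cells of a type and less RNA per cell cannot be told apart, and the line difference is that of 1 selected population per direction.

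Each array carried 60-base probes and a single pig, in 1 colour, on 6 slides of 8 arrays with 2 pigs of each line and diet per slide. The median processed signal of an array ranged from 52.8 to 108, between 59.2% and 74.2% of its probes were well above background, and 0 spots were saturated. The 8 muscle fibre markers were well above background on 48 arrays. Of these, 1 had a positive line difference and 2 were lower in high RFI pigs, RYR1 (-0.25, adjusted p = 0.00509) and PYGM (-0.14, adjusted p = 0.0445). Higher in high RFI pigs were 2 of 6 fibroblast markers (COL1A1 by 0.37, COL1A2 by 0.32), 1 of 6 adipocyte markers (FABP4 by 0.32) and 1 of 5 endothelial markers (TEK by 0.24). Other members of these lists had negative differences that did not pass. These were DCN (-0.059) and LUM (-0.016) of the fibroblast list, PECAM1 (-0.065) and CDH5 (-0.15) of the endothelial list, and LEP (-0.001) of the adipocyte list. Of all tested probes, 16.4% were called for line. The part of these cell types in the carrier results was not tested. The level of a probe is given as the log2 of its processed signal minus the mean of the array's tested probes, and a difference as high RFI minus low RFI on that log2 scale, averaged over diets unless stated. Levels of different probes cannot be compared, because probes differ in how well they hybridise. Tests were made with limma over the 4 group means, and p-values were adjusted by Benjamini-Hochberg over the 42125 tested probes, with a threshold of 0.05. The number of arrays limits the precision. Pig 6 of the high RFI pigs fed HF stood furthest apart. It was the highest or the lowest of the 48 pigs in 60 instances over the 345 carrier probes, whereas the median pig was so in 12. Results that rest on pig 6 are given with and without it. Pig 10 of the same group was so in 42 instances and pig 5 of the low RFI pigs fed HF in 35. Neither of these was left out, so dependence on other single pigs was not covered.

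Of the 345 carrier probes, 52 (15.1%) differed between the lines, whereas 16.4% of all tested probes did. In high RFI pigs 20 carrier probes were higher and 32 were lower, and among all tested probes 6.57% were higher and 9.85% lower. Carriers as a whole therefore stood close to the background. The median difference was -0.027 over the carrier probes and -0.029 over all probes, and 57.7% of the carrier probes had a negative difference, against 58.2% of all probes. Most of the called differences were small. Their median size was 0.23, and 41 of the 52 were under 0.5 on the log2 scale. All 52 had the same sign on both diets and on both scan days, and 39 had it on all 6 slides. The 52 were chosen by their average over these same pigs, so such agreement was largely set by the choice. It is no separate support, here or for the single genes below. Without pig 6, 45 carrier probes were called. Of the 52, 6 were well above background in under 12 pigs of a line and so were tested only through the other line, 4 of them through the high RFI pigs. For these 6, at SLC45A3, SLC45A2, SLC34A3, SLC5A1 and SLC11A1, levels are described with no test.

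**Figure D1:**
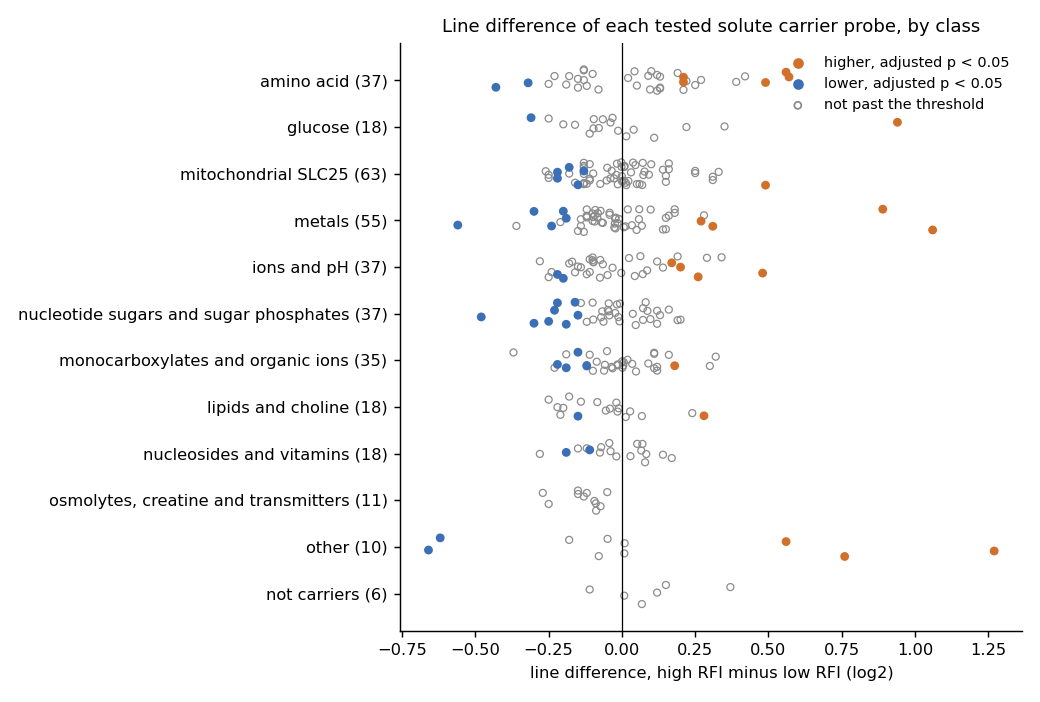
Line difference (high RFI minus low RFI, log2) of each of the 345 tested carrier probes, by class, with the number of tested probes in brackets. Filled points passed the threshold (20 higher, 32 lower), open points did not. Most called points lie within 0.5 of zero, and several of the outermost, such as that of SLC45A3, are dim probes at background in most pigs of a line.

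When each gene was read at its brightest probe, 32 of the 196 genes differed, 8 of them higher and 24 lower in high RFI pigs. These counts include SLC45A3, SLC34A3 and SLC45A2, whose probes were tested only through 1 line. Counts at the brightest probe were not made for all genes on the array. The split by gene, here and for the classes and diets below, therefore has no background and is not read as a trait of the carriers. Counted by probe, carriers as a whole stood close to the background, as given above. Over 10 other settings of processing and of pigs left out, 12 of the 32 genes were called in every setting that held their probe. Of these, 11 were well above background in at least 12 pigs of each line. The 11 were SLC48A1, SLC35D1, SLC35B2, SLC5A10, SLC25A39, SLC25A44, SLC16A11, SLC7A7, SLC38A5, SLC39A11 and SLC5A4. The remaining gene, SLC45A2, was dim and tested only through the low RFI pigs, so its calls are not counted as support. The other 20 of the 32 lost the call in at least 1 setting. A further 10 genes were called at a dimmer probe only. Of 82 genes with several tested probes, 58 had all their probes on the same side of zero. In 14 pairs of carrier probes with identical sequence, the line differences had the same sign in 14 pairs and differed by 0.09 at most, with a median gap of 0.03. The array names of 140 of the 446 probes could be checked through RefSeq accessions, and 140 matched.

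Among the amino acid carriers, 7 of 37 tested probes (18.9%) differed between the lines, 5 higher and 2 lower in high RFI pigs, close to the 16.4% of all tested probes. The median difference was 0.096. With quantile normalization the split was 4 higher and 3 lower. At the brightest probes 2 of 22 genes were called, SLC7A7 and SLC38A5, both higher. They held the 5 higher probes, and the 2 lower probes were dimmer probes of SLC7A2 and of SLC3A1, the heavy subunit of a cystine carrier (-0.32, adjusted p = 0.0369). SLC7A7 encodes the light subunit of a carrier that exchanges cationic for neutral amino acids and is known from kidney, intestine and macrophages. Its level under the HF diet ranged from -1.52 to -0.65 (median -1.10) in the low RFI line and -1.48 to 2.03 (median -0.76) in the high RFI line. For the LF diet the corresponding ranges were -1.31 to -0.40 (median -0.81) and -1.03 to 1.02 (median -0.24). The groups overlapped, and 9 of 24 high RFI pigs were above the highest low RFI pig. The difference was 0.56 ± 0.17 (SE, adjusted p = 0.0167), or 1.47-fold, and its other probes gave 0.57 and 0.49. With normexp background correction these became 0.42 at the brightest probe, 0.12 (adjusted p = 0.172) and 0.27. Without pig 6 the difference at the brightest probe was 0.44 (adjusted p = 0.013).

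SLC38A5 encodes a carrier of glutamine, asparagine and histidine. Its level under the HF diet ranged from 0.90 to 1.64 (median 1.30) in the low RFI line and 1.27 to 1.76 (median 1.47) in the high RFI line. With LF feeding the ranges were 1.05 to 1.70 (median 1.30) and 1.30 to 2.13 (median 1.5). The difference was small, 0.21 ± 0.06 (SE, adjusted p = 0.0133), and was positive on 6 of 6 slides. The second, dimmer probe of the gene gave 0.21 as well (adjusted p = 0.0494). The amino acid carriers listed for their role in muscle did not pass. SLC3A2, the heavy subunit shared by several amino acid exchangers, differed by -0.15 ± 0.16, the glutamine carrier SLC1A5 by 0.12 ± 0.081, and SLC38A2, a sodium-coupled neutral amino acid carrier, by 0.13 ± 0.20.

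SLC7A2, a carrier of arginine and lysine, was measured by a pair of probes that differ at a single base, and the probes gave unlike results. The stretch from base 12 to base 41 of each is shown because it holds that base, in capitals. The substitution is A26G, counted from 1 at the 5′ end, with the probe designed from the pig mRNA record first.
SLC7A2, probe with A: gatcccaagcctccAtgtttgaaaaatcac
SLC7A2, probe with G: gatcccaagcctccGtgtttgaaaaatcac
At the probe with A, the level under the HF diet ranged from 2.76 to 4.02 (median 3.6) in the low RFI line and 2.28 to 3.87 (median 2.96) in the high RFI line, and under the LF diet from 3.18 to 3.97 (median 3.42) and 2.29 to 3.86 (median 3.18). High RFI pigs were lower (difference -0.43 ± 0.12, SE, adjusted p = 0.00808). At the probe with G, which is the brighter, the difference was 0.043 ± 0.083 (adjusted p = 0.763), and group medians lay between 3.70 and 3.91. The gap of 0.48 between both line differences exceeded the 0.09 seen at most between probes of identical sequence.

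Within a pig, the signal of the probe with A minus that of the probe with G fell into 3 separate ranges. It lay between -1.19 and -0.74 in 24 pigs, between -0.33 and -0.07 in 20 pigs and between 0.33 and 0.49 in 4 pigs. The lowest range held 7 low RFI and 17 high RFI pigs, the middle range 13 and 7, and the highest range 4 and 0. These counts are a description made after the values were seen, with no test, and no genotypes were analysed here. In the other pairs of probes of 1 gene that differ at a single base of their overlap, 9 pairs with this one, the line differences of both probes were within 0.084 of each other, except 0.30 in a pair of SLC44A4, a choline carrier.

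**Figure D2:**
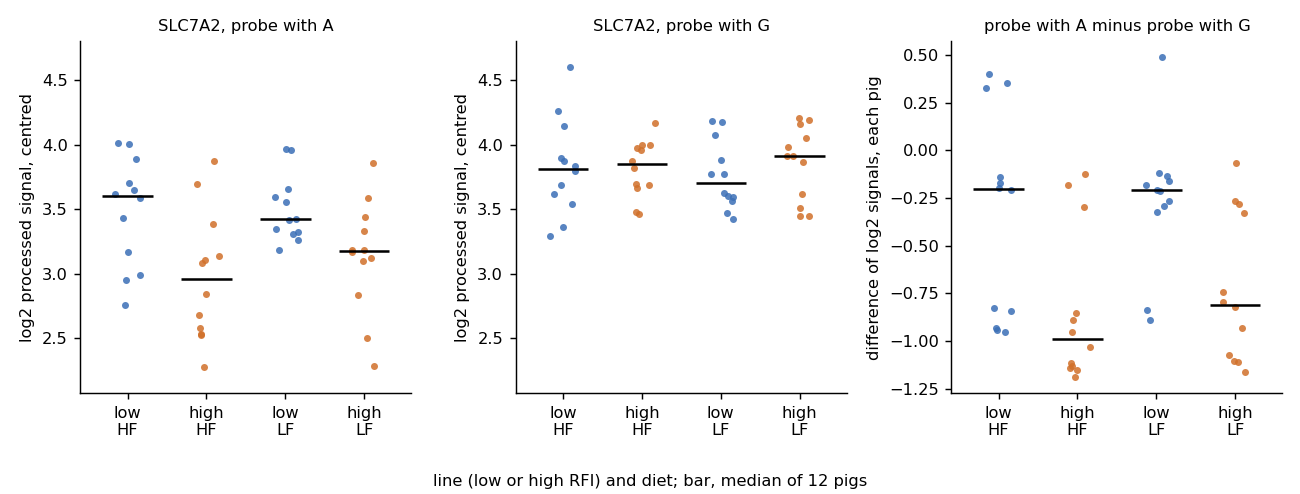
SLC7A2 in every pig at the probe with A (left) and the probe with G (middle), as centred log2 signal on a shared scale, and the difference of both for each pig (right), by line and diet, with bars for the median of 12 pigs. High RFI pigs are lower at the probe with A only, and the differences fall into the ranges -1.19 to -0.74, -0.33 to -0.07 and 0.33 to 0.49.

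Among the glucose carriers, 2 of 18 tested probes (11.1%) were called, under the 16.4% of all tested probes. This share depends on the list. SLC5A4, described below, stood outside it, and 2 of its 2 tested probes were called, so that with SLC5A4 the share would be above 16.4%. At the brightest probes 1 of 12 genes was called, SLC5A10. It encodes a sodium-coupled carrier of mannose and fructose known mainly from kidney. Its level under the HF diet ranged from 4.24 to 4.56 (median 4.42) in the low RFI line and 3.8 to 4.56 (median 4.07) in the high RFI line. For the LF diet the corresponding ranges were 4.10 to 4.79 (median 4.39) and 3.67 to 4.43 (median 4.21). The ranges overlapped, but 12 of 24 high RFI pigs were below the lowest low RFI pig. The difference was -0.31 ± 0.057 (SE, adjusted p = 0.000188), and it passed on the HF diet (-0.32, adjusted p = 0.0131) and on the LF diet (-0.29, adjusted p = 0.0371). A pair of dimmer probes that share a sequence gave -0.079 and -0.096, neither past the threshold. Their mean levels were -1.30 and -1.29, against 4.26 at the probe called. Which of these probes reads the transcript of the gene was not tested. The first 30 bases of the probe called and of the shared probe are shown because both are assigned to the same mRNA record and gave different sizes.
SLC5A10, probe called: tatgagcagctggcagctgctacgcccagg
SLC5A10, shared probe: gccttgctgagccagcaaagcaggagccct

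The facilitated glucose carriers showed no called difference. SLC2A1, which supplies basal glucose uptake, differed by -0.16 ± 0.092 (adjusted p = 0.234), SLC2A3 by -0.013 ± 0.16, SLC2A8 by 0.015 ± 0.059 and SLC2A12 by -0.065 ± 0.077. The other probe called was a dim probe of SLC5A1, the sodium-glucose carrier of the intestine. It was well above background in 8 low RFI and 17 high RFI pigs, so most low RFI values were at background and no test is given. The brighter probe of the gene differed by 0.11 ± 0.083 and did not pass (adjusted p = 0.397).

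SLC5A4, which the array describes as a low affinity glucose cotransporter, stood outside the fixed list of glucose carriers and had 2 probes without shared sequence. The first 30 bases of both are shown because their values agreed pig by pig.
SLC5A4, first probe: gtccacggctattttgcctaaactctctct
SLC5A4, second probe: atctgagaagcctttatggaagactatagt
At the first probe the level under the HF diet ranged from -0.57 to 2.28 (median 1.48) in the low RFI line and 0.16 to 1.99 (median 1.78) in the high RFI line. With LF feeding the ranges were -0.02 to 1.80 (median 0.31) and 0.56 to 2.59 (median 1.86). High RFI pigs were higher by 0.76 ± 0.19 (SE, adjusted p = 0.00484), or 1.69-fold, and the second probe gave 0.56 ± 0.16 (adjusted p = 0.0118). The values lay in separate ranges. At the first probe 19 pigs lay between -0.57 and 0.75 and 29 pigs between 1.32 and 2.59, with none between, and the second probe put 48 of 48 pigs on the same side. The lower range held 4 low RFI and 3 high RFI pigs on the HF feed, and 10 low RFI and 2 high RFI pigs on the LF feed. These counts are given as a description with no test. The line difference was 0.30 on the HF diet (adjusted p = 0.51) and 1.21 on the LF diet (adjusted p = 0.00737), and the difference between the diets had p = 0.0211 before and 0.999 after adjustment by limma.

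Among the mitochondrial SLC25 carriers, 6 of 63 tested probes (9.52%) differed, 5 lower and 1 higher in high RFI pigs, under the 16.4% of all tested probes. The median difference over the family was -0.0014. At the brightest probes 5 of 28 genes were called, and 5 were lower. With quantile normalization 2 probes were higher and 2 lower, and without pig 6 only 3 probes were called, 1 higher and 2 lower. SLC25A44, a carrier of branched-chain amino acids into mitochondria, under the HF diet ranged from -1.76 to -1.0 (median -1.44) in the low RFI line and -1.79 to -1.39 (median -1.59) in the high RFI line, and under the LF diet from -1.59 to -1.25 (median -1.38) and -1.86 to -1.5 (median -1.64). The lines overlapped on both diets, and 3 of 24 high RFI pigs were below the lowest low RFI pig. The difference was -0.22 ± 0.047 (SE, adjusted p = 0.000954), and it was negative on 6 of 6 slides.

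SLC25A39, a carrier needed for mitochondrial glutathione, under the HF diet ranged from 5.0 to 5.58 (median 5.33) in the low RFI line and 4.54 to 5.48 (median 5.0) in the high RFI line. For the LF diet the corresponding ranges were 5.22 to 5.64 (median 5.38) and 5.02 to 5.49 (median 5.21). Its difference was -0.22 ± 0.052 (adjusted p = 0.00315). SLC25A46, a protein of the outer membrane that takes part in mitochondrial dynamics, differed by -0.18 ± 0.066 (adjusted p = 0.0487), while a second probe of the same sequence gave -0.12 and did not pass. SLC25A46 was called in 4 of 9 other settings, and not without pig 6 (adjusted p = 0.0728).

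SLC25A4, the ADP/ATP carrier of muscle, under the HF diet ranged from 8.68 to 9.24 (median 8.98) in the low RFI line and 8.67 to 9.16 (median 8.89) in the high RFI line. With LF feeding the ranges were 8.69 to 9.14 (median 8.95) and 8.47 to 9.10 (median 8.75). The groups overlapped widely. The difference was -0.13 ± 0.045 (adjusted p = 0.0441), but it was -0.0065 with quantile normalization (adjusted p = 0.933) and did not pass without pig 6 (adjusted p = 0.0587). It was called in 5 of 10 other settings. The phosphate carrier SLC25A3, with 11 tested probes, differed by -0.039 ± 0.043, and the ADP/ATP carrier SLC25A6 by 0.022 ± 0.05. SLC25A20, which moves acylcarnitines for fatty acid oxidation, differed by -0.13 ± 0.099, and the malate and aspartate shuttle carriers SLC25A11 and SLC25A12 by 0.077 ± 0.061 and -0.13 ± 0.079. The 1 probe that was higher, a dimmer probe of the pyrimidine nucleotide carrier SLC25A36, differed by 0.49 ± 0.12 (adjusted p = 0.00373), or by 0.18 with normexp background correction, and the brighter probe of that gene by 0.15 ± 0.088 (adjusted p = 0.245).

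The metal carriers held the most clearly changed gene. SLC48A1 moves heme, the iron-holding group of myoglobin and of the cytochromes, from endosomes and lysosomes into the cytosol, and was measured by a single probe, whose first 30 bases are shown because it carries the smallest adjusted p of the carriers for line.
SLC48A1: tcactttagcagaaataacagcggccattt
Its level under the HF diet ranged from 1.49 to 2.41 (median 2.07) in the low RFI line and 0.82 to 1.56 (median 1.25) in the high RFI line, and under the LF diet from 1.34 to 2.28 (median 1.71) and 0.86 to 1.96 (median 1.5). The lines hardly overlapped on the HF diet, and 14 of 24 high RFI pigs were below the lowest low RFI pig. The difference was -0.56 ± 0.081 (SE, adjusted p = 5.43e-06), which is 0.68 times the low RFI level, and lay between -0.79 and -0.37 on each of the 6 slides. It was -0.79 ± 0.11 on the HF diet (adjusted p = 3.42e-05) and -0.33 ± 0.11 on the LF diet (adjusted p = 0.118). The difference between these values, -0.46 ± 0.16, had p = 0.00665 before and 0.999 after adjustment by limma.

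**Figure D3:**
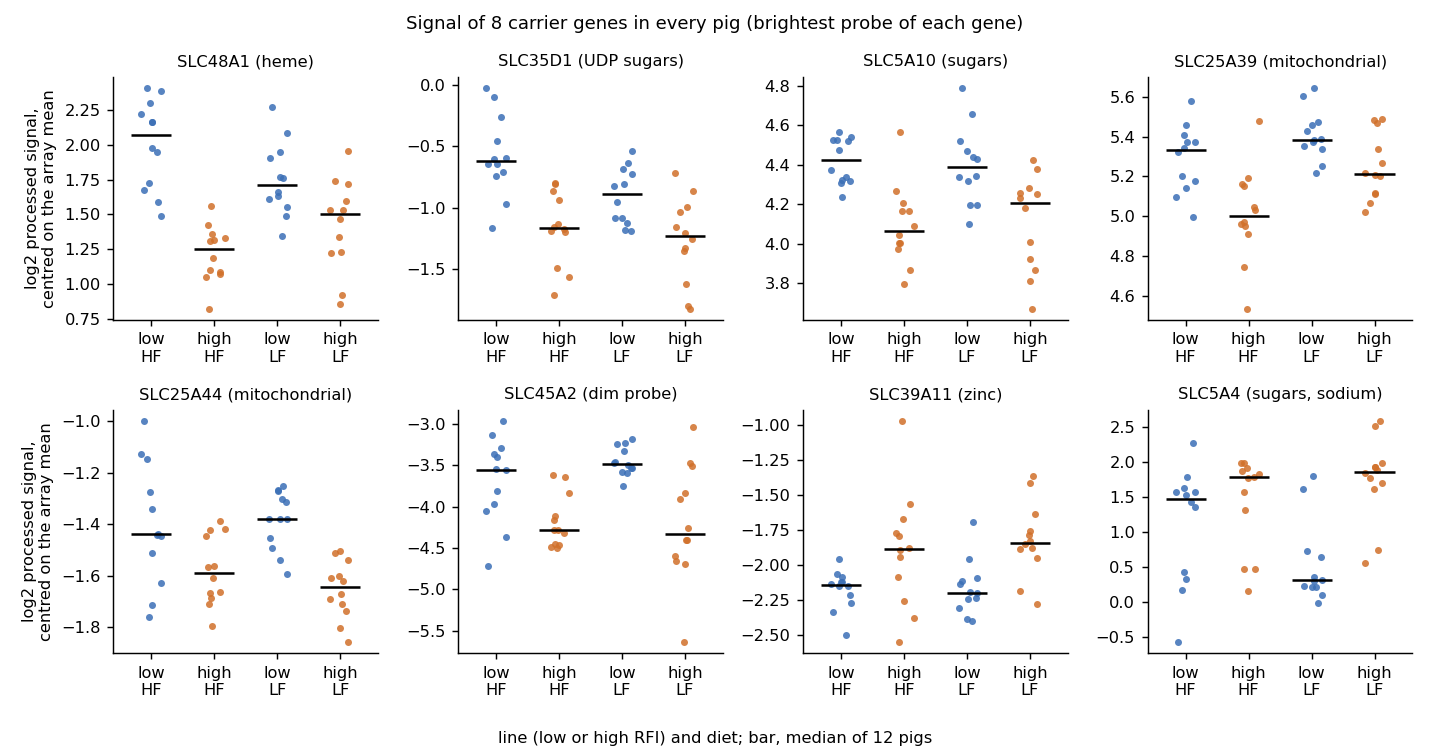
Centred log2 signal of 8 carrier genes in every pig, by line and diet, at the brightest probe of each gene, with bars for the median of 12 pigs and a separate axis for each gene. SLC48A1 on the HF diet has medians of 2.07 and 1.25 with little overlap, and SLC5A4 values lie in separate lower and upper ranges.

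Of 55 tested probes of metal carriers, 9 (16.4%) were called, 4 higher and 5 lower, the same share as among all tested probes (16.4%). At the brightest probes 1 of 27 genes was higher and 3 were lower. SLC39A11, a zinc carrier, was higher by 0.31 ± 0.078 (SE, adjusted p = 0.0046), with levels from -2.55 to -0.97 in high RFI and from -2.50 to -1.69 in low RFI pigs, or by 0.18 with normexp background correction. The iron carrier SLC11A2 was lower (difference -0.24 ± 0.075, adjusted p = 0.0234) and the zinc carrier SLC39A3 as well (-0.19 ± 0.056, adjusted p = 0.0161). SLC30A5, a zinc carrier of the secretory pathway, and SLC39A5, a zinc importer, were called at a dimmer probe (-0.30 and -0.20, adjusted p = 0.00755 and 0.00889) and not at the brightest. The zinc exporter SLC30A1 differed by -0.082 ± 0.095 and did not pass. At its brightest probe the copper carrier SLC31A2 was called on the LF diet, where it differed by 0.39 ± 0.10 (adjusted p = 0.0262), against -0.024 ± 0.10 on the HF diet, and the difference between the diets had p = 0.00584 before and 0.999 after adjustment by limma.

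SLC11A1, which pumps metals out of the phagosomes of macrophages, had 3 probes that did not share sequence and gave unlike results. Their first 30 bases are shown for that reason.
SLC11A1, brightest probe: aaacatccagtcggatcttcaggctggcgc
SLC11A1, second probe: gacaacaccaatcttgcaacggatgtaaag
SLC11A1, dim probe: gaacacaggctccaaacaggtatttaaaat
At the brightest probe group medians lay between 1.29 and 1.37 and the difference was -0.021 ± 0.046 (adjusted p = 0.798). At the second probe the level under the HF diet ranged from -3.04 to -1.86 (median -2.23) in the low RFI line and -3.50 to 2.01 (median -1.94) in the high RFI line. For the LF diet the corresponding ranges were -3.18 to -0.87 (median -1.63) and -2.23 to 1.24 (median -0.38). High RFI pigs were higher by 0.89 ± 0.28 (SE, adjusted p = 0.024), or 1.85-fold, and 10 of 24 were above the highest low RFI pig. The difference was 0.72 without pig 6 (adjusted p = 0.0313) and 0.59 with normexp background correction. The dim probe was well above background in 4 low RFI and 15 high RFI pigs, so most low RFI values were at background and no test is given.

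Macrophage markers were also read, because SLC11A1 and SLC7A7 are known from macrophages. Of the 5 markers (CD68, CD163, CD14, CSF1R and C1QA), 5 had a positive line difference and 3 passed. CD14 was higher by 0.30 (adjusted p = 0.00916) and CSF1R by 0.94 (adjusted p = 0.00201). C1QA was higher by 0.41 and passed narrowly, with an adjusted p that rounds to 0.05. CD163 (0.52, adjusted p = 0.0555) and CD68 (0.40, adjusted p = 0.17) did not pass. Without pig 6, C1QA no longer passed (adjusted p = 0.0822). Their summed level ranged from 1.09 to 3.18 (median 2.14) in the low RFI line and in the high RFI line from 1.74 to 4.09 (median 2.69). The sum was taken before the log, so it is mostly that of CD163 and C1QA (mean levels 1.24 and 0.82). CSF1R and CD68 (-3.39 and -3.95) add little to it. CD68 was well above background on 28 arrays and CSF1R on 35, the others on 48. Pig 6 had the highest value of SLC7A7, of the second and the dim SLC11A1 probe and of CD163, CD14, CSF1R and C1QA. The part of the macrophage markers in the results of these carriers was not tested.

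**Figure D4:**
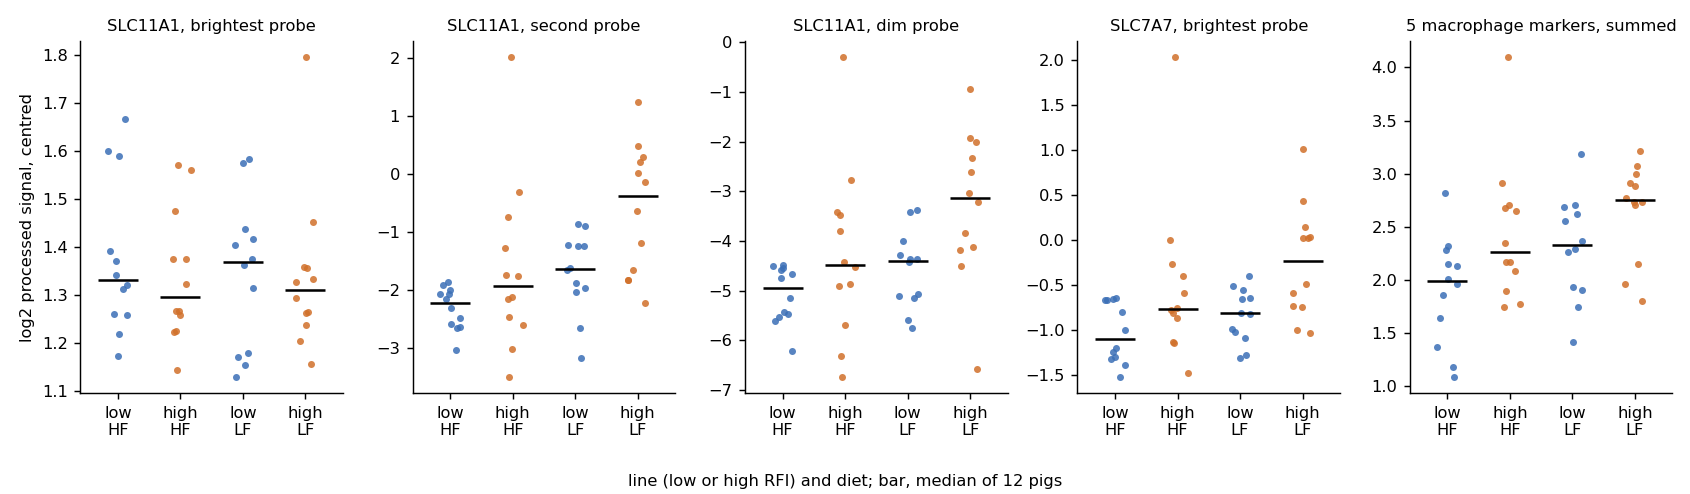
Centred log2 signal in every pig of the 3 SLC11A1 probes, the brightest SLC7A7 probe and the summed signal of 5 macrophage markers, by line and diet, with bars for the median of 12 pigs and a separate axis for each panel. The sum is mostly that of CD163 and C1QA. The brightest SLC11A1 probe has medians between 1.29 and 1.37 in every group, and the top point of the high RFI pigs fed HF is the same pig in the other panels.

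The carriers of nucleotide sugars and sugar phosphates, which load the endoplasmic reticulum and Golgi with substrates for glycosylation, were called in 8 of 37 probes (21.6%), with 0 higher and 8 lower in high RFI pigs, against 16.4% of all tested probes called and 9.85% lower. SLC35D1 and SLC35B2 held 5 of the 8. At the brightest probes 5 of 18 genes were lower. SLC35D1, which carries UDP-glucuronic acid and UDP-N-acetylgalactosamine for the synthesis of chondroitin sulfate, under the HF diet ranged from -1.17 to -0.03 (median -0.62) in the low RFI line and -1.71 to -0.80 (median -1.17) in the high RFI line. With LF feeding the ranges were -1.19 to -0.54 (median -0.89) and -1.82 to -0.71 (median -1.23). The difference was -0.48 ± 0.087 (SE, adjusted p = 0.000165), and 12 of 24 high RFI pigs were below the lowest low RFI pig. A second probe gave -0.30 ± 0.056 (adjusted p = 0.000186) and another -0.0082 ± 0.11 (adjusted p = 0.971). The first 30 bases of the 3 probes, which do not overlap, are shown because they disagree.
SLC35D1, brightest probe: ataaatgatgtgctgacagcagcaaatggt
SLC35D1, second probe: agctccttcctgatcgtggtggtcaacaag
SLC35D1, last probe: gacataccgtttctttgcacttgtacaatc
SLC35B2, which carries the sulfate donor into the Golgi, was lower at 3 of 4 probes, with a difference of -0.15 ± 0.037 at the brightest (adjusted p = 0.00509). SLC35A5, a member with no settled substrate, was lower (difference -0.25 ± 0.077, adjusted p = 0.0227), and the glucose-6-phosphate exchanger SLC37A1 as well (-0.23 ± 0.07, adjusted p = 0.0213). The remaining probe called, that of SLC35E4, differed by -0.19 (adjusted p = 0.04).

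Among the carriers of ions, 6 of 37 probes (16.2%) were called, close to the 16.4% of all tested probes. SLC34A3, a sodium-phosphate carrier of the kidney, had a dim probe that was well above background in 9 low RFI and 21 high RFI pigs, and no test is given. SLC4A1, the anion exchanger of red blood cells, was higher by 0.26 ± 0.092 (adjusted p = 0.0464), or 0.23 without pig 6 (adjusted p = 0.0765). Of 5 red blood cell markers 3 were tested and 0 were called, and HBB differed by -0.015. SLC26A5, the motor protein of outer hair cells, was lower (difference -0.20 ± 0.058, adjusted p = 0.0133). SLC12A9, an orphan member of the cation-chloride cotransporters, was higher by 0.17 ± 0.054 and 0.20 ± 0.057 at a pair of probes of identical sequence. SLC8A1, SLC12A2 and SLC20A1, carriers of calcium, chloride and phosphate with a known role in muscle, differed by 0.14 ± 0.079, -0.18 ± 0.069 and 0.34 ± 0.13 and did not pass (adjusted p = 0.222, 0.0603 and 0.0692).

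Of the carriers of monocarboxylates and organic ions, 5 of 35 probes (14.3%) were called, against 16.4% of all tested probes. SLC16A11, of the monocarboxylate family, was lower (difference -0.22 ± 0.053, adjusted p = 0.00286), and so was SLC10A7 (-0.19 ± 0.06, adjusted p = 0.0279). SLC22A18 and SLC10A3 differed by -0.15 and -0.12 (adjusted p = 0.0305 and 0.0449). The lactate carriers of muscle, SLC16A1 and SLC16A3, differed by 0.12 ± 0.068 and -0.12 ± 0.047 at their brightest probes and did not pass (adjusted p = 0.217 and 0.071). SLC16A1 had 8 tested probes, of which 1 was called, at 0.18 (adjusted p = 0.0473). The choline carrier SLC44A2 was lower (difference -0.15 ± 0.054, adjusted p = 0.0414), but was called in 4 of 10 other settings, and not without pig 6 (adjusted p = 0.0659). SLC44A4 was called at a dimmer probe (0.28, adjusted p = 0.0348) and differed by -0.019 at its brightest. The fatty acid transport protein SLC27A1 differed by -0.015 ± 0.058. The nucleobase carrier SLC43A3 was lower (difference -0.19 ± 0.059, adjusted p = 0.0236). The adenosine carrier SLC29A1 was lower at its brightest probe (-0.11 ± 0.037, adjusted p = 0.039) and was called there in 5 of 10 other settings, with an adjusted p of up to 0.209, while its 5 other probes gave between -0.075 and 0.17 and did not pass. The osmolyte, creatine and transmitter carriers had 11 negative differences in 11 probes, with a median of -0.12, whereas 58.2% of all tested probes were negative. They had 0 calls at the adjusted threshold and 2 at an unadjusted limma p under 0.05. The 11 probes stand for 8 genes, with 3 probes of SLC6A8 and 2 of identical sequence for SLC6A12, and so are not independent. The creatine carrier SLC6A8 differed by -0.05 ± 0.063.

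The 6 probes of 4 genes that bear an SLC name but encode no carrier held 0 calls, with an unadjusted limma p under 0.05 for 3 of them. Among all 42125 tested probes, 13071 had such a p for line. The remaining class held several dim probes. SLC45A2, known from the melanosomes of pigment cells, was well above background in 18 low RFI and 9 high RFI pigs, with levels from -4.72 to -2.97 in low RFI and from -5.64 to -3.04 in high RFI pigs. The difference of -0.62 became -0.18 with normexp background correction, and no test is given because most high RFI values were at background. SLC45A3, known from the prostate, was well above background in 2 low RFI and 12 high RFI pigs, so nearly all low RFI values were at background and no test is given. Pig 12 of the high RFI pigs fed HF lay at 3.46 and the next highest pig at -2.20.

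Of 26 carriers with a known role in muscle, 22 were tested, and SLC7A5, SLC6A6, SLC22A5 and SLC25A5 had no probe with that name. Of 60 tested probes of the 22 genes, 2 were called, 1 higher and 1 lower, whereas 16.4% of all tested probes were called. At the brightest probes 1 of 22 was called, SLC25A4. Differences over the 22 ran from -0.18 to 0.34, with a median of -0.044. The mitochondrial iron carrier SLC25A37, also on the list, differed by -0.11 ± 0.061.

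The line difference was next compared within each diet. On the HF diet 18 of 345 carrier probes (5.22%) were called, 2 higher and 16 lower, against 6.39% of all tested probes. The calls of all tested probes on this diet were not split by direction, so the split is not a trait of the carriers. On the HF diet 58.6% of the carrier probes had a negative difference, against 57.3% of all tested probes. At the brightest probes 12 genes were lower and 0 higher, with SLC48A1, SLC35D1, SLC37A1 (-0.39, adjusted p = 0.0154), SLC5A10 and SLC16A11 (-0.32, adjusted p = 0.00838) the furthest apart. Without pig 6 the probes called were 12. On the LF diet 10 carrier probes (2.90%) were called, 5 higher and 5 lower, against 2.47% of all tested probes. At the brightest probes SLC5A4, SLC31A2 and SLC12A9 (0.29, adjusted p = 0.0307) were higher, and genes lower there included SLC5A10 and SLC25A44 (-0.27, adjusted p = 0.0182). Of the 52 probes called over both diets, 2 were called on each diet and 28 on neither, and 32 had the larger size on the HF diet.

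**Figure D5:**
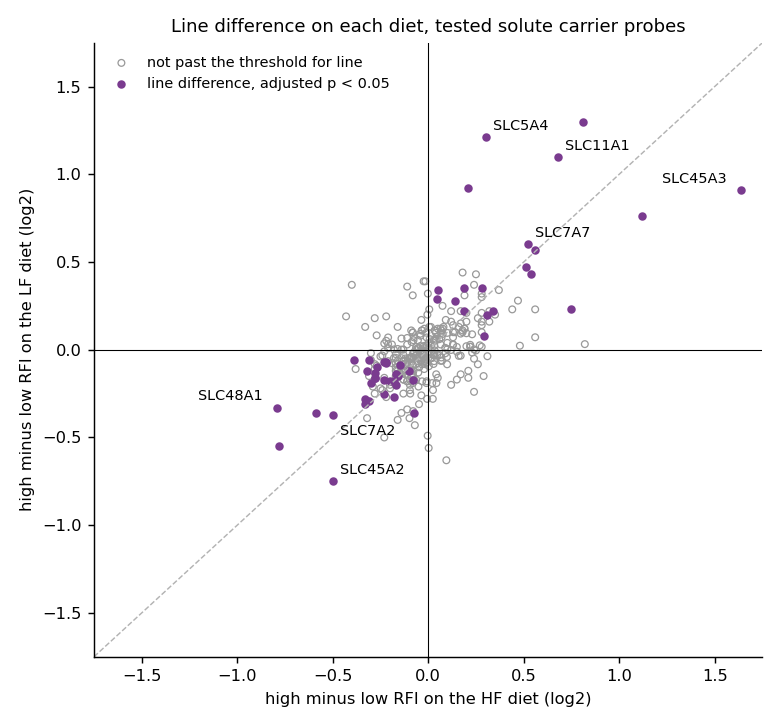
Line difference (high RFI minus low RFI, log2) on the HF diet against that on the LF diet for the 345 tested carrier probes, with the 52 called for line filled and the dashed line marking equal differences. The filled points, chosen by their average over both diets, lie on the same side of zero on each. SLC5A4 is further out on the LF diet (1.21 against 0.30) and SLC48A1 on the HF diet (-0.79 against -0.33).

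A test of the difference between the diets called 0 carrier probes, as it did among all tested probes (0.0%). An unadjusted limma p under 0.05 was found for 19 of the 345 carrier probes and for 1875 of all 42125 tested probes. Besides SLC31A2 and SLC48A1, the smallest p was that of SLC35A3, a carrier of UDP-N-acetylglucosamine, at 0.00597, with a line difference of 0.29 on the HF and -0.15 on the LF diet. None of the 3 passed adjustment (0.999).

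Diet itself, HF minus LF averaged over lines, was called for 0 of 345 carrier probes by limma, against 0.42% of all tested probes. An unadjusted limma p under 0.05 was found for 37 of the 345 carrier probes and for 5513 of all 42125 tested probes. Closest to the threshold were SLC25A39, which differed by -0.18 ± 0.052 (adjusted p = 0.0966), and SLC4A1, which differed by -0.32 ± 0.092 (adjusted p = 0.0967). Without pig 6, SLC4A1 and the second SLC11A1 probe were called, and without pig 12 of the high RFI pigs fed HF, SLC25A39 was. The spread between pigs of a group had a median SD of 0.27 over the carrier probes. Among genes well above background on 48 arrays, SLC5A4 (SD 0.68), SLC7A1, a carrier of cationic amino acids (0.64), and SLC9A3R1, which encodes a scaffold protein and no carrier (0.62), varied most within groups at their brightest probe.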

How the data were processed

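The authors deposited spot intensities of each array, made with Agilent Feature Extraction 10.7.3.1, which subtracted the background, and a table of log2 values. The labels name R 2.10.0. Each column of the deposited log2 table matched the logged median intensity of the spots, less that array's median (34472 probes), and served as an alternative. Here, control and outlier spots were left out, spots of a probe were averaged, and log2 processed signals were set relative to the array's average of 42125 tested probes. Line and diet were tested by limma 3.58.1 (R 4.3.3). A gene was read at its brightest tested probe. The genes named were, at that probe, the 6 largest called differences in each direction for amino acid, glucose and SLC25 carriers, 2 for every other class, 5 for diet and for line within diet, the 3 smallest p for the interaction, and 26 carriers with a role in muscle. Some genes that met this rule are not reported here. Others, and the results of single dimmer probes, were named after their values were seen. Members and lists were chosen with earlier results of these data known. Of the carrier probes, 25 were well above background on 0 arrays, 12 on 12 to 14 arrays, just inside the limit (median level -4.47), and 4 on 9 to 11, just outside it. Nothing in the labels ties pigs to litters. The genome build and coordinates of the probes are not given in the sources used here. Scaling, background correction, filter, outlier spots, slide, scan day, deposited table and probe choice were varied, and pigs 6 and 12 were left out after the values were seen.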

Additional observations from a re-analysis of the deposited data

How the results depend on the processing

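The count of carrier probes called for line, 52 of 345, was 27 of 446 without the filter on dim probes. It was 32 of 196 with 1 probe per gene, and between 38 and 59 with the other planned settings. The count of 38, out of 269, was that of the deposited table. Over all probes the share called was 6.42% without the filter and 17.8% in the deposited table, against 16.4% in the setting used above. Such shares are not given here within a diet. On the HF diet the count of 18 became 11 with normexp background correction and 9 without the filter, and on the LF diet the count of 10 became 3 without the filter and 5 in the deposited table. Leaving out pig 6 or pig 12 of the high RFI pigs on the HF diet, chosen after the values were seen, gave 2 and 1 carrier probes for diet, where the count was 0. Amino acid carriers fell from 7 probes to 2 genes with 1 probe per gene. Glucose carriers fell from 2 to 1 with quantile normalization, normexp, no filter, the deposited table, 1 probe per gene and without pig 6, and SLC25 carriers from 6 to 3 without the filter and from 6 to 3 without pig 6 (7 without pig 12). The cause was not tested. Of 27 named genes called for line, 12 were called without the filter, where more probes were tested, 18 with normexp and 22 with quantile normalization, and 27 with slide or scan day as a block. Values not past the threshold changed sign for SLC25A3 (0.062 with quantile normalization, 0.00037 with normexp), SLC27A1 (0.0012 with normexp) and SLC2A3 (0.016 in the deposited table). Signal over background left 6 of the 52 probes called for line with values at background in most pigs of a line. No paired analysis was made, because nothing in the labels pairs the pigs of 1 group with those of another.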
